A study of Rattus norvegicus with 9 samples.

Results

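The genes described here are 10 components of the Notch pathway in cultured rat cartilage progenitor cells: the receptors Notch1, Notch2 and Notch3, the ligands Jag1, Jag2 and Dll1, and the target genes Hes1, Hey1, Hey2 and Heyl. Their rows were found by gene symbol, and each symbol matched 1 of the 34267 genes of the expression table. Polyadenylated RNA was sequenced from primary cultures of wild-type cells of the condylar cartilage, with 3 libraries in each of 3 groups. The control group (P3) was cells grown in vitro to passage 3. The replicative senescence group (P9) was the same kind of cells grown to passage 9. The third group was cells of passage 3 under flow fluid shear stress (FFSS), which the study used as a model of degeneration caused by abnormal mechanical load. All 3 groups were wild type, and both models were set against the same 3 P3 libraries. Nothing in the labels ties a library to its own animal or culture, so p-values measure only the spread between these libraries, which may be technical.

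Notch receptors are single-pass membrane proteins that bind Jagged or Delta-like ligands on a neighbouring cell. Binding leads to cleavage of the receptor, and its intracellular part moves to the nucleus, joins the DNA-binding protein RBPJ and Mastermind-like coactivators, and switches on genes of the HES and HEY families, which encode transcriptional repressors. In cartilage the pathway is known for its part in keeping progenitors and in controlling their differentiation into chondrocytes.

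Depth was similar in the 9 libraries, at 13264930 to 15323790 fragments on genes. Values are FPKM (fragments per kilobase of gene, scaled for the depth of the library), so levels can be compared between genes, and 1 fragment on a gene of 1 kilobase is worth 0.0619 to 0.0733 FPKM. Within groups, FFSS replicate 1 stood furthest from its replicates, with a chi-square per gene of 143 and 70.9 against FFSS replicates 2 and 3, where 28.1 was found between those. The mitochondrial share of fragments ranged from 2.12 to 2.32% among P3 libraries, from 2.31 to 2.56% among P9 libraries and from 2.96 to 3.75% among FFSS libraries. The labelled cell type was checked against lists of marker genes. Of the mesenchymal progenitor markers, 9 of 10 reached 1 FPKM in at least 3 libraries, with Itgb1 at 894 ± 76.5 and Thy1 at 890 ± 63.1 FPKM in P3 (SD, n = 3). Of the cartilage markers, 7 of 10 did. The proteoglycan gene Acan was at 128 ± 6.56 FPKM in P3, but Col2a1, the main collagen gene of mature cartilage, was at 0.703 to 1.06 FPKM and Col9a1 was at 0. In bulk RNA, a change in the share of cells that express a gene and a change in RNA per cell cannot be told apart.

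The promoters below are shown because HES and HEY genes are the classical targets of RBPJ, whose binding site holds the core TGGGAA. They compare 2 target genes that hold the longer form GTGGGAA (Hes1 and Hey2) with a target gene and the leading ligand that hold neither (Heyl and Jag1). Each is the 250 bases before the start of the gene, 5′ to 3′ on the gene's strand, from RefSeq on the rat build GRCr8, with each TGGGAA, on either strand, in capitals.
Hes1, chr11:84213046-84213295, minus strand: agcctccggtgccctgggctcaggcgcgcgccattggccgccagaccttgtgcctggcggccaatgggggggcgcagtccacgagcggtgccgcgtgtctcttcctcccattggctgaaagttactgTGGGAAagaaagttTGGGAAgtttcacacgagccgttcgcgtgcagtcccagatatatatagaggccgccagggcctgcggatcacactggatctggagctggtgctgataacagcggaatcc
Hey2, chr1:28640850-28641099, plus strand: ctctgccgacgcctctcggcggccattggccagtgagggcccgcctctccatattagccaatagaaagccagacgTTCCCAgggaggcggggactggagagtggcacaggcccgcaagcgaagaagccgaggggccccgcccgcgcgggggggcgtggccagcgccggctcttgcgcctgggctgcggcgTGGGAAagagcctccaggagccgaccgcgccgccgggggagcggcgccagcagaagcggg
Heyl, chr5:140793021-140793270, plus strand: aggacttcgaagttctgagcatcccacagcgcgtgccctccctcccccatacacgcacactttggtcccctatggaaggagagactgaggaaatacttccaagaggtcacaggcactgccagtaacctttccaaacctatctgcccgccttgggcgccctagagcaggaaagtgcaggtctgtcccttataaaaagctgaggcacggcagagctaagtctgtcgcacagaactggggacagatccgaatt
Jag1, chr3:144894884-144895133, minus strand: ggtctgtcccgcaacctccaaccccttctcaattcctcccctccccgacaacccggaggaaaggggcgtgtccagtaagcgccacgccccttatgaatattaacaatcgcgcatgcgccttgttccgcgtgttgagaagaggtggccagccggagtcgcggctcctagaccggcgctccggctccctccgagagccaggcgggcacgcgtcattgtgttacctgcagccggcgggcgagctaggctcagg

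Of the 10 genes, 9 matched the RefSeq promoter table and Hey1 did not. Within the 300 bases from 250 before to 50 after the start, TGGGAA was found on either strand in 4 genes: Hes1, Hey2, Dll1 and Notch3. The longer GTGGGAA, which contains TGGGAA, was found in Hes1, Hey2 and Dll1. In Hes1 the 2 matches began 123 and 109 bases before the start and lay on the same strand. Hey2 had 1 match on the gene's strand, 60 bases before the start, and 1 on the opposite strand. Of 33469 promoters of the same length, 25.7% held TGGGAA and 6.29% held GTGGGAA. A match describes these letters only and was not tested as a binding site.

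In P9 cells the members did not all move in 1 direction. Mean FPKM was lower than in P3 for Notch2 and higher for Notch1, Notch3, Jag1, Hes1, Hey1, Hey2 and Heyl. The differences of Hes1 and Heyl did not pass the test, and Jag2 and Dll1 had few fragments. Jag1, which encodes the ligand Jagged 1, rose from 9.29 ± 1.35 to 46.2 ± 12.6 FPKM (SD, n = 3 per group). The receptors Notch1 and Notch3 and the target gene Hey1 rose from means under 1 FPKM to means of 1.48, 2.12 and 3.22 FPKM. Notch2, the receptor with by far the most RNA in these cells, fell from 55.6 ± 1.95 to 32.4 ± 2.09 FPKM. In FFSS cells, Hes1 rose from 6.32 ± 0.884 to 57.5 ± 42.3 FPKM and Hey1 fell from 0.765 ± 0.359 to 0.0975 ± 0.169 FPKM, while Jag1 was at 11.1 ± 5.69 FPKM. The P9 calls of Jag1 and Hey1 held whichever library was left out. For the other calls made with the filter, the libraries on which they rest are named with each gene. Genes below the filter, such as Hey2, were not refitted with a library left out.

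Differences were tested with limma on log2(FPKM + 1), so fold changes of low genes are understated on that scale, and p-values were adjusted by Benjamini-Hochberg over the 13059 genes that reached 1 FPKM in 3 or more libraries. A gene counts as changed at an adjusted p under 0.05. Of the members, 6 entered this fit, and Notch1, Notch3 and Hey1 entered it only through their P9 values. Jag2, Dll1, Hey2 and Heyl were below the filter. A second fit therefore had no filter and held all 10 members among the 21968 genes with any fragment.

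With the filter, 4 members were called higher and 1 lower in P9 than in P3, where 5.39% of all genes tested were called higher and 4.44% lower. The 4 include Notch1, Notch3 and Hey1, which passed the filter only through P9, so their count can not be weighed against that share. Without the filter, 5 of the 10 members were called higher and 1 lower, beside 3.11% and 2.30% of all genes in that fit. The 5 were Notch1, Notch3, Jag1, Hey1 and Hey2, and the lower one was Notch2. That fit also holds the many genes near 0 that the filter leaves out. The members and lists were chosen with earlier results of these data known. Counts set beside shares of all genes, here and below, are therefore a description and not a test. With the filter, leaving out P3 replicate 1 gave 2 calls, P9 replicate 2 gave 3 and FFSS replicate 1 gave 6. In FFSS against P3, 1 member was called higher and 1 lower with the filter, where 11.4% of all genes were called higher and 10.4% lower. Without it, Hes1 alone was called, beside 5.91% higher and 4.86% lower of all genes. With the filter, leaving out P3 replicate 2 or 3 or FFSS replicate 3 gave 0 calls in this comparison, and leaving out P3 replicate 1 or any 1 P9 library gave 1. The share of all genes called with a library left out is not given here, so these counts can not be weighed against a share.

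**Figure D1:**
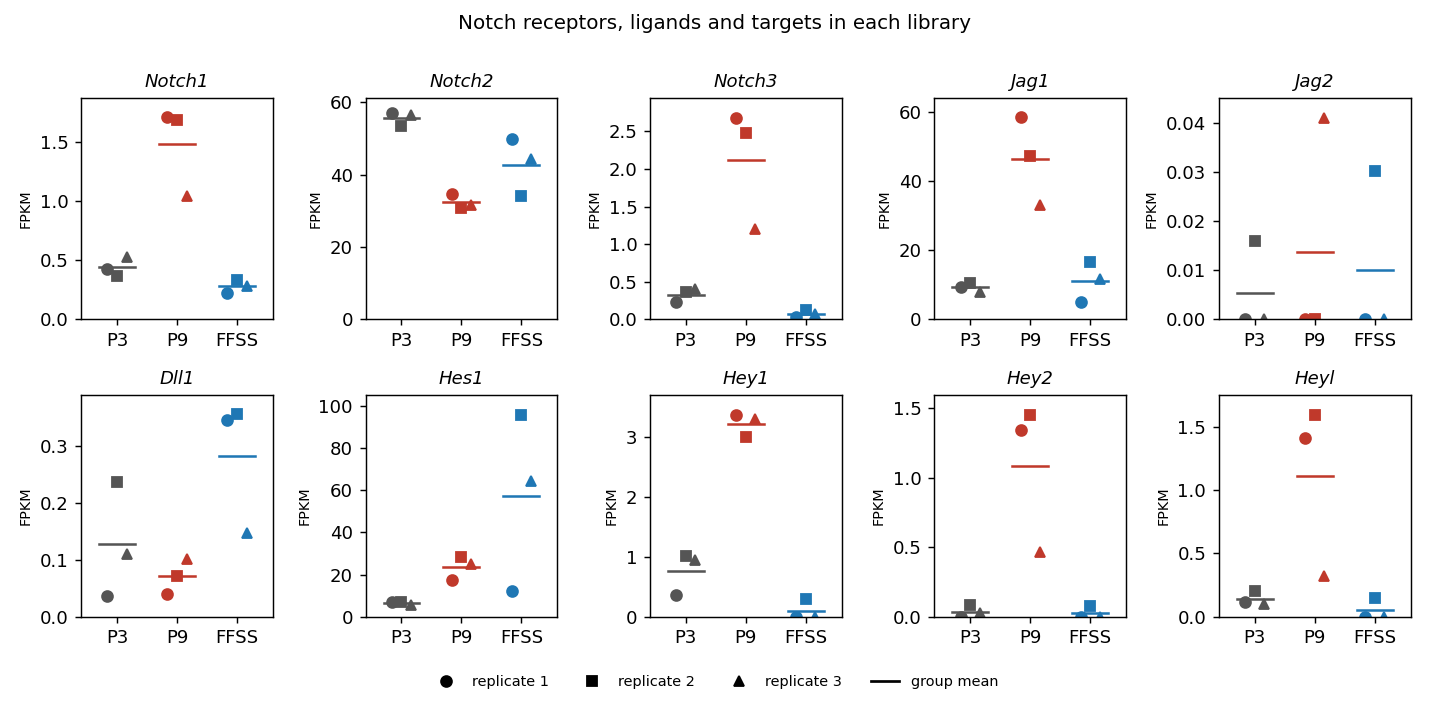
FPKM of each of the 10 members in the 9 libraries (points) with the group mean (line, n = 3 per group). The vertical scale differs between panels. Jag1, Notch1, Notch3, Hey1, Hey2 and Heyl are highest in P9, Hes1 has its highest libraries in FFSS, and Notch2 is highest in P3.

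Among the receptors, Notch2 (chr2:200187179-200320215, plus strand, in the authors' build Rnor_6.0) was measured at 57.1, 53.4 and 56.4 FPKM in P3, 34.7, 30.8 and 31.6 in P9, and 49.8, 34.0 and 44.2 in FFSS. Every P9 library was below every P3 library, and so was every FFSS library, while P9 and FFSS overlapped. The log2 difference of P9 from P3 was -0.76 (SE 0.14, limma adjusted p = 0.00940), a ratio of summed, depth-scaled fragments of 0.579. That of FFSS from P3 was -0.39 (SE 0.14) and did not pass (limma adjusted p = 0.0772). The P9 call was lost without P3 replicate 1 (limma adjusted p = 0.0512), and the FFSS difference was called without FFSS replicate 1 (limma adjusted p = 0.0139).

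Notch1 (chr3:3905453-3951025, minus strand), the receptor best known from T-cell and endothelial development, was at 0.423, 0.365 and 0.526 FPKM in P3. It was at 1.71, 1.69 and 1.04 FPKM in P9 and at 0.225, 0.331 and 0.283 FPKM in FFSS. The 3 groups did not overlap, with P9 highest and FFSS lowest. The log2 difference of P9 from P3 was 0.77 (SE 0.18, limma adjusted p = 0.0280), and the 627 fragments in P9 against 183 in P3 gave a depth-scaled ratio of 3.32 (exact 95% counting interval 2.81 to 3.94, which covers counting error only). The call was lost when any 1 of the P3 libraries or P9 replicate 1 or 2 was left out (limma adjusted p = 0.0788 to 0.112), and with a pseudocount of 0.1 (limma adjusted p = 0.0529). The difference of FFSS from P3 was -0.17 (interval -0.58 to 0.24, limma adjusted p = 0.533).

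Notch3 (chr7:14138495-14189688, minus strand), known as the receptor of vascular smooth muscle and pericytes, was at 0.226, 0.367 and 0.398 FPKM in P3. Its P9 libraries were at 2.68, 2.48 and 1.20 FPKM, and its FFSS libraries at 0.0274, 0.131 and 0.0736 FPKM. Here too the 3 groups did not overlap, in the same order as for Notch1. The rise in P9 was 1.20 on the log2 scale (SE 0.22, limma adjusted p = 0.0102), with a depth-scaled fragment ratio of 6.32 (exact 95% counting interval 5.14 to 7.84). It was lost without P3 replicate 1 (limma adjusted p = 0.0541) or P9 replicate 2 (limma adjusted p = 0.0517). The difference of FFSS from P3 was -0.30 (interval -0.81 to 0.20, limma adjusted p = 0.354), and the fragment ratio was 0.234 (exact 95% counting interval 0.145 to 0.365). Both counting intervals cover counting error only.

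Notch2 was far above the other receptors in every library. Of the summed FPKM of Notch1, Notch2, Notch3 and Notch4, the share of Notch2 was 98.3 to 98.6% in P3 libraries, 87.8 to 93.1% in P9 libraries and 98.0 to 99.3% in FFSS libraries. The share of Notch3 was 0.391 to 0.695% in P3, 3.54 to 7.06% in P9 libraries and 0.0547 to 0.378% in FFSS, and that of Notch1 was 0.674 to 0.918%, 3.06 to 4.81% and 0.448 to 0.954%. Within each P9 library Notch3 was above Notch1, at 2.68, 2.48 and 1.20 against 1.71, 1.69 and 1.04 FPKM, although their ranges overlapped. In P3 the order of Notch1 and Notch3 differed between libraries. The order was not tested. The summed receptor level was 56.5 ± 1.95 FPKM in P3, 36.0 ± 2.76 in P9 and 43.2 ± 7.83 in FFSS. Notch4, the receptor of endothelium, was at 0.0419 to 0.164, 0.0680 to 0.112 and 0.124 to 0.234 FPKM in the 3 groups.

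**Figure D2:**
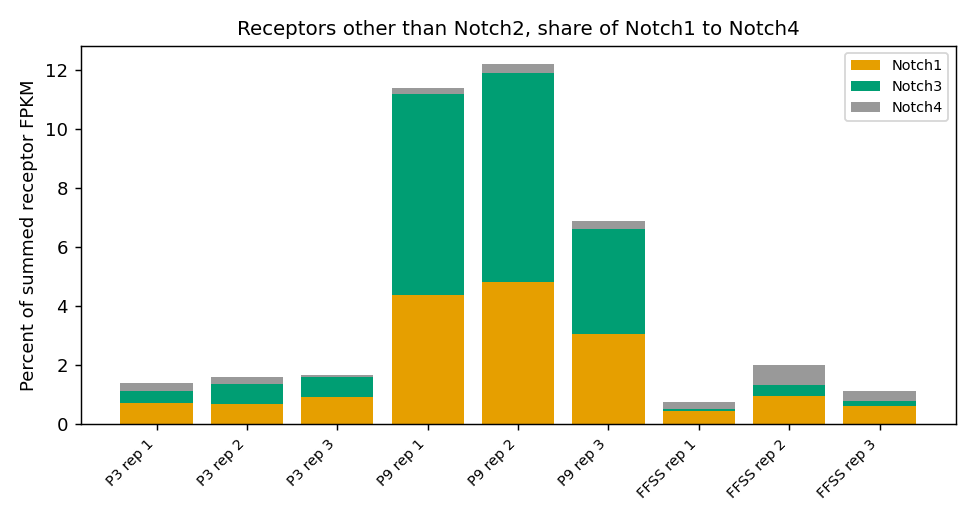
Share of Notch1, Notch3 and Notch4 in the summed FPKM of Notch1 to Notch4, in percent, stacked for each of the 9 libraries. Notch2 is not drawn and makes up the remainder, above 98% in the P3 libraries and between 87.8 and 93.1% in the P9 libraries. Notch3 and Notch1 fill most of the rest in P9.

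Of the ligands, Jag1 (chr3:130079361-130114770, minus strand) was the only one above 1 FPKM. It was measured at 9.48, 10.5 and 7.86 FPKM in P3, 58.4, 47.1 and 33.1 in P9, and 5.15, 16.5 and 11.8 in the FFSS libraries. The P9 libraries were all above the others, and the FFSS libraries lay on both sides of the P3 libraries. The log2 difference of P9 from P3 was 2.17 (SE 0.36, limma adjusted p = 0.00559), and the call held whichever library was left out (limma adjusted p = 0.000514 to 0.0301). The difference of FFSS from P3 was 0.12 (interval -0.69 to 0.92, limma adjusted p = 0.837), an interval that spans 0.

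Jag1 made up 97.3 to 98.7% of the summed FPKM of Jag1, Jag2, Dll1, Dll3 and Dll4 in P3, 99.6 to 99.9% in P9 libraries and 93.7 to 96.1% in FFSS. Dll1 (chr1:57318708-57327379, minus strand), a Delta-like ligand, was at 0.0360, 0.237 and 0.111 FPKM in P3, 0.0399, 0.0713 and 0.101 in P9, and 0.346, 0.355 and 0.146 in the FFSS libraries. These values come from 20, 12 and 46 fragments per group. The 3 FFSS libraries were above the 3 P9 libraries, yet the difference of P9 from FFSS did not pass without the filter (log2 -0.26, limma adjusted p = 0.0815). Jag2 (chr6:137711155-137733026, minus strand) had 1 fragment in P3, 3 in P9 and 2 in FFSS, so no difference was detectable at this depth, where 3 fragments are worth 0.0410 to 0.0485 FPKM. Dll4, the ligand of sprouting endothelium, had 1 fragment in all 9 libraries together.

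Hes1 (chr11:74312806-74315248, minus strand) encodes a repressor of differentiation genes that many stimuli besides Notch can induce. It was at 6.78, 6.88 and 5.30 FPKM in P3, 17.4, 28.3 and 25.2 in P9, and 12.2, 95.9 and 64.4 in FFSS. All P9 and all FFSS libraries were above the P3 libraries, and FFSS replicate 1 was below every P9 library. The log2 difference of FFSS from P3 was 2.59 (SE 0.61, limma adjusted p = 0.0192). Pooled over libraries, the fragment ratio was 9.06 (exact 95% counting interval 8.17 to 10.1). That interval covers counting error only and not the wide spread between the FFSS libraries. The log2 difference of P9 from P3 was 1.73 (SE 0.61) and did not pass (limma adjusted p = 0.125).

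The Hes1 calls depended on single libraries. The FFSS call was lost without any 1 of the P3 libraries (limma adjusted p = 0.0585 to 0.0632), without FFSS replicate 3 (0.0709) and in a fit of the 2 groups alone (0.0539). Without FFSS replicate 1, Hes1 was called higher in both models. FFSS then differed from P3 by 3.45 on the log2 scale (limma adjusted p = 4.94e-05), and the adjusted p of P9 against P3 was 0.00123. In a limma fit of the P9 and P3 libraries alone it was 0.00170.

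Of the HEY genes, whose products are repressors related to the HES proteins, Hey1 and Hey2 were called higher in P9 than in P3 and Heyl was not. Hey1 (chr2:95320283-95322696, plus strand) was at 0.352, 1.004 and 0.938 FPKM in P3, 3.36, 3.003 and 3.29 in P9, and 0, 0.292 and 0 in the FFSS libraries. The 3 groups did not overlap, with 136 fragments in P9, 31 in P3 and 4 in FFSS. The rise in P9 was 1.28 on the log2 scale (SE 0.21, limma adjusted p = 0.00500), and it was lost with a pseudocount of 0.1 (limma adjusted p = 0.0810). FFSS differed from P3 by -0.67 on the log2 scale (SE 0.21, limma adjusted p = 0.0459). This call was lost without the filter (limma adjusted p = 0.0598), with the 2 groups alone (0.0928), and when any 1 library was left out except P3 replicate 1 and FFSS replicate 2 (0.0592 to 0.149).

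Hey2 (chr1:29191192-29201531, plus strand), known from heart and vessel development, was at 0, 0.0814 and 0.0253 FPKM in P3. It was at 1.34, 1.45 and 0.463 FPKM in P9 and at 0, 0.0770 and 0 FPKM in FFSS. This is 4 fragments in P3, 128 in P9 and 3 in FFSS, and every P9 library was above every other. The fit without the filter gave a log2 difference of P9 from P3 of 0.97 (limma adjusted p = 0.0201). This call was not checked by leaving out a library, and P9 replicate 3, at 0.463 FPKM, was well below the other P9 libraries. Voom, a count-based form of limma, on genes with at least 10 fragments in 3 libraries, an alternative chosen after seeing the data, gave 4.82 (limma-voom adjusted p = 0.0216).

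Heyl (chr5:140923914-140940905, plus strand), a HEY relative, was at 0.114, 0.202 and 0.102 FPKM in P3, 1.42, 1.59 and 0.319 in P9, and 0, 0.147 and 0 in FFSS. P9 was again above the others in every library, with 227 fragments against 28 in P3 and 10 in FFSS. The difference of P9 from P3 did not pass (log2 0.83 and limma adjusted p = 0.0964 without the filter, limma-voom adjusted p = 0.106). The pooled fragment ratio was 7.86 (exact 95% counting interval 5.29 to 12.1, which covers counting error only and not the spread between libraries). Within P9, replicate 3 was the lowest library for Notch1, Notch3, Jag1, Hey2 and Heyl. Within FFSS, replicate 1 was the lowest for Notch1, Notch3, Jag1 and Hes1.

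Counting groups whose libraries did not overlap, 7 members were higher and 1 lower in P9 than in P3, beside 15.8% and 15.0% of all genes with a fragment. In FFSS against P3, 1 member was higher and 4 were lower, beside 15.8% and 15.3% of all genes. The 4 were Notch1, Notch2, Notch3 and Hey1, of which only Hey1 passed the limma test.

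P9 and FFSS were compared directly, which tests whether the 2 models differ from each other. With the filter, 4 members were called higher in P9 and none lower, where 16.1% of all genes tested were called higher and 15.3% lower. Notch1, Notch3 and Hey1 are among the 4 and passed the filter only through their P9 values. This count can therefore not be weighed against that share. Notch3 was higher in P9 by 1.50 on the log2 scale (SE 0.22, limma adjusted p = 0.00152), Jag1 by 2.05 (SE 0.36, 0.00319), Notch1 by 0.94 (SE 0.18, 0.00493) and Hey1 by 1.95 (SE 0.21, 0.000259). These 4 calls held whichever library was left out. Without the filter, Hey2 (log2 0.99, limma adjusted p = 0.00874) and Heyl (0.95, 0.0275) were called too, so that 6 of 10 members were higher, beside 9.15% of all genes in that fit, and none was lower, beside 9.19%. The calls of Hey2 and Heyl were not checked by leaving out a library.

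Hes1 and Notch2 were not called between the models. The log2 difference of P9 from FFSS was -0.86 for Hes1 (SE 0.61, limma adjusted p = 0.314) and -0.37 for Notch2 (SE 0.14, limma adjusted p = 0.0705). Without FFSS replicate 1, Hes1 was called lower in P9 (log2 -1.72, limma adjusted p = 0.000670), and without FFSS replicate 2, Notch2 was (limma adjusted p = 0.0103). Both comparisons with P3 share its libraries, so the values of the members in them are given side by side only.

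**Figure D3:**
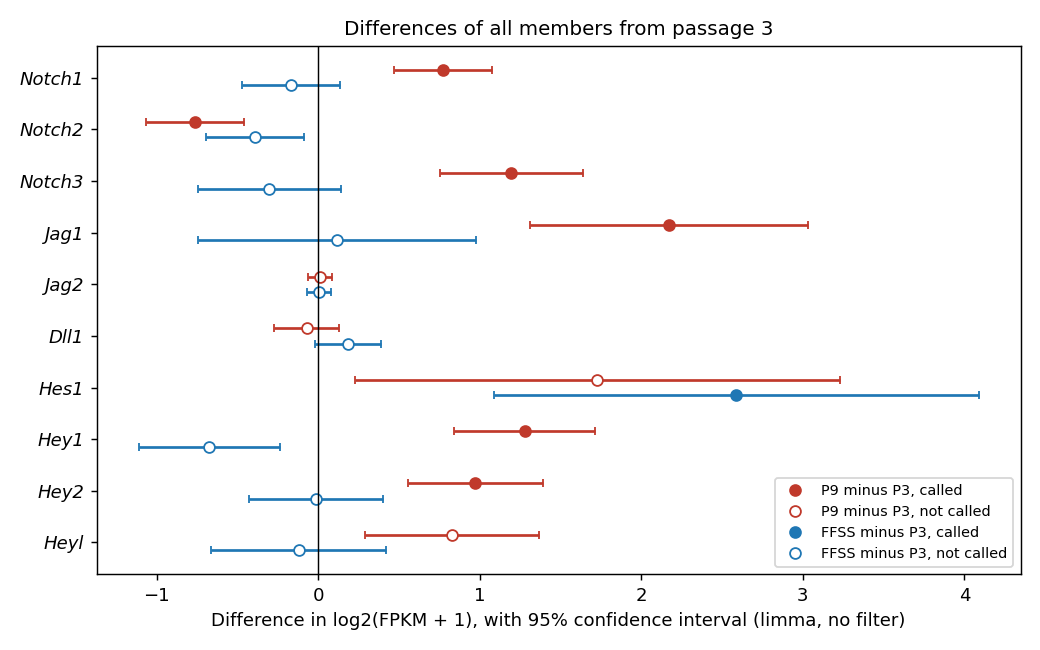
Log2 differences on log2(FPKM + 1), from the limma fit without a filter for all 10 members, with 95% intervals, for P9 against P3 and FFSS against P3. Jag1, Hes1, Notch1, Notch3, Hey1, Hey2 and Heyl lie to the right in P9 against P3, of which Hes1 and Heyl are not called. Hes1 has the largest difference of the 10 in FFSS against P3.

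The rest of the pathway was read from a list of 65 genes, of which 62 were in the table and 49 were tested. In P9 against P3, 2 of the 49 were called higher and 1 lower, where 5.39% of all genes tested were called higher and 4.44% lower, and the median log2 difference was -0.06, against -0.00 over all genes tested. Lfng, a glycosyltransferase that changes which ligands a Notch receptor answers, rose from 2.89 ± 0.696 to 8.97 ± 0.459 FPKM (log2 1.37, limma adjusted p = 0.0175). The corepressors Tle1 and Tle3 moved in opposite directions, Tle1 from 2.73 ± 0.0692 to 6.29 ± 0.947 FPKM (limma adjusted p = 0.0268) and Tle3 from 18.3 ± 0.855 to 11.6 ± 2.38 FPKM (limma adjusted p = 0.0377). Each of these calls was lost when 1 library was left out, in 5 of 9 cases for Lfng and Tle1 and in 7 of 9 for Tle3. Leaving out P3 replicate 1, P3 replicate 3, P9 replicate 1 or P9 replicate 2 gave 0 calls in this list, and leaving out P3 replicate 2 or P9 replicate 3 gave 1. The number was 5 when FFSS replicate 2 was left out and 9 when FFSS replicate 1 was. No share of all genes is given for the fits with a library left out. Tle1 (limma adjusted p = 0.0570) and Tle3 (0.0583) were also lost without the filter.

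Nrarp, a feedback inhibitor induced by Notch, was at 0.0779, 0 and 0.0798 FPKM in P3, 1.15, 1.49 and 0.486 in P9, and 0.0263, 0.135 and 0.0528 in FFSS. All P9 libraries were above the rest, with 118 fragments against 6 in P3 and 8 in FFSS. It was below the filter, and the fit without it gave a log2 difference of P9 from P3 of 0.93 (limma adjusted p = 0.0202). This call of Nrarp was not checked by leaving out a library. Rbpj, the DNA-binding partner of the cleaved receptor, was at 39.9 ± 2.08 FPKM in P3, 28.6 ± 4.77 in P9 and 45.2 ± 7.69 in FFSS. Its difference from P3 did not pass in P9 (log2 -0.48, limma adjusted p = 0.107) or in FFSS (0.16, 0.500). Without FFSS replicate 1 the P9 difference was called (limma adjusted p = 0.0330), as it was with the 2 groups alone (0.0450).

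In FFSS against P3, 12 of the 49 genes were called higher and 2 lower, where 11.4% of all genes tested were called higher and 10.4% lower, with a median log2 difference of 0.25, against -0.01 over all genes tested. Among the HES-related repressors, Hes6 rose from 10.6 ± 0.413 to 25.9 ± 2.95 FPKM (log2 1.21, limma adjusted p = 0.000790). Bhlhe40, which is also a circadian and stress-response repressor, rose from 29.4 ± 1.20 to 154 ± 57.1 FPKM (2.28, 0.00107) and its paralog Bhlhe41 from 19.5 ± 3.30 to 54.1 ± 8.08 FPKM (1.43, 0.00963). Kat2a, a histone acetyltransferase, rose by 0.77 on the log2 scale (limma adjusted p = 0.00781), Dtx3, of the Deltex family of ubiquitin ligases, by 1.23 (0.00882), and Furin, the protease that cuts the receptor precursor, by 0.79 (0.0129). Of these 6 genes, Furin alone lost its call without 1 library (P3 replicate 1 or 3, or FFSS replicate 3, limma adjusted p = 0.0510 to 0.0524). Leaving out P3 replicate 1, 2 or 3 gave 5, 7 or 6 calls in this list. The number was 9 when FFSS replicate 3 was left out and 22 when FFSS replicate 1 was. The share of all genes called in those fits is not given here, so these counts can not be read as particular to this list.

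In P9 against FFSS, 3 of the 49 were called higher and 15 lower, where 16.1% of all genes tested were called higher and 15.3% lower, with a median log2 difference of -0.30, against 0.00 over all genes tested. Bhlhe41 (log2 -2.27, limma adjusted p = 0.000631), Hes6 (-0.85, 0.00144) and Bhlhe40 (-1.70, 0.00153) were lower in P9, as was Adam17 (-0.87, 0.00438), a sheddase that can cut Notch receptors. Neurl1b, a ubiquitin ligase that acts on ligands, was higher in P9 (1.87, limma adjusted p = 0.00169), and so was the histone deacetylase gene Hdac1 (0.55, 0.00509). These 6 calls held whichever library was left out. Rbpj was lower in P9 (log2 -0.64, limma adjusted p = 0.0167), but not without P9 replicate 3 (0.0537), without FFSS replicate 3 (0.0660) or with the 2 groups alone (0.0570). The count of calls in this list was 10 without FFSS replicate 3, again with no share of all genes given.

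**Figure D4:**
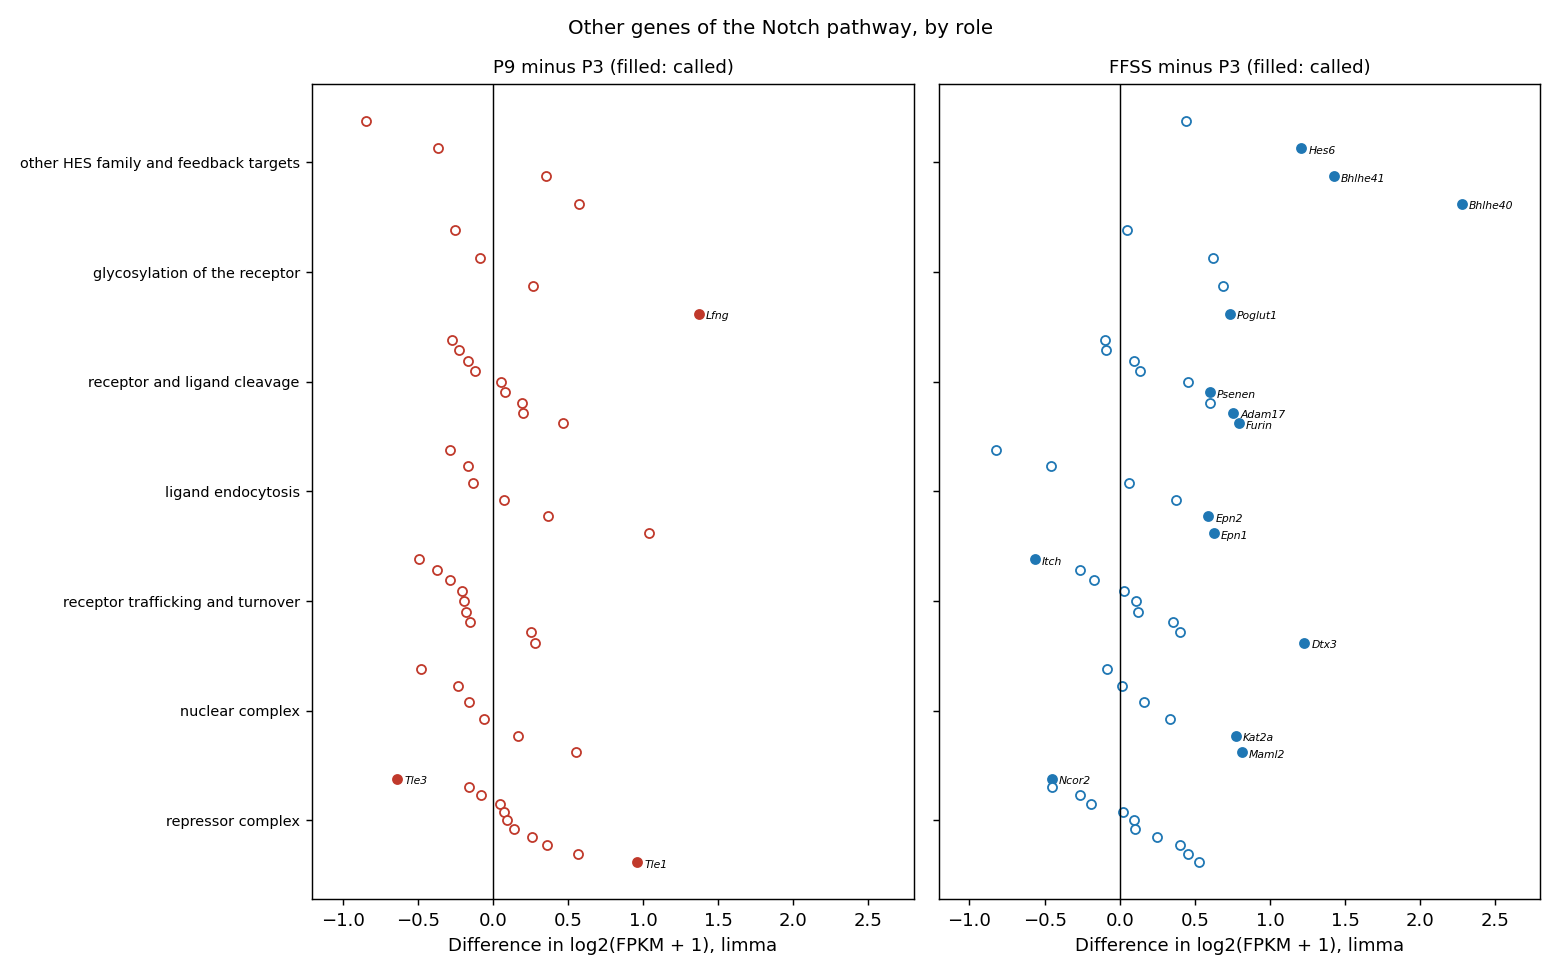
Log2 differences on log2(FPKM + 1) of the 49 tested other pathway genes, grouped by their role, for P9 against P3 and FFSS against P3, with called and not called genes marked. In FFSS against P3, 12 genes are called higher and 2 lower, and in P9 against P3, 2 are called higher and 1 lower.

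The genes whose pattern over the 9 libraries was most like a member's were sought among genes with a mean of at least 5 FPKM, by the root mean square difference of centred log2(FPKM + 1) values, as a description with no test. Jag1 was most like Dysf, a membrane repair gene of muscle, which was at 7.72 ± 1.51, 45.4 ± 5.70 and 7.92 ± 4.39 FPKM in P3, P9 and FFSS (difference 0.228, against a spread of Jag1 about its own mean of 1.08), and next Bmper (0.287). Hes1 was most like Id1, an inhibitor of basic helix-loop-helix factors, at 21.8 ± 4.03, 50.4 ± 1.18 and 124 ± 80.1 FPKM (0.337, against 1.31), and next Errfi1 (0.365). Notch3 was most like Tes (0.154, against 0.677) and Tln2 (0.170), Notch1 like Cav2 (0.0947, against 0.427) and Aig1 (0.0964), and Hey1 like Prag1 (0.202, against 0.830) and Flvcr2 (0.232). For these 3 low members the added 1 shrinks the differences, so a like pattern is not a like fold change. In P3, P9 and FFSS, mean Notch3 was 0.330, 2.12 and 0.0775 FPKM, and mean Tes was 13.5, 30.5 and 9.96 FPKM.

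Markers of other cell types that use Notch genes were summed in the same libraries. The 10 pericyte and smooth muscle markers summed to 3634 to 4332 FPKM in P3, 8348 to 9807 in P9 libraries and 3164 to 4627 in FFSS, mostly Acta2 and Tagln. Of the 6 tested, 4 were called higher in P9 than in P3 (5.39% of all genes), 3 lower in FFSS than in P3 (10.4%) and all 6 higher in P9 than in FFSS (16.1%). The pericyte genes Rgs5, Kcnj8 and Abcc9 were below 0.1 FPKM in every library. The part of these markers in the differences of Notch3, Jag1, Hey2 and Heyl was not tested. The 9 endothelial markers found in the table summed to 13.8 to 14.2 FPKM in P3, 7.23 to 13.6 in P9 libraries and 17.3 to 21.8 in FFSS, mostly Egfl7, and Cdh5, Tie1 and Emcn were below 0.1 FPKM in every library.

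The macrophage and leukocyte markers summed to 9.60 to 11.2 FPKM in P3, 5.14 to 5.66 in P9 libraries and 42.2 to 106 in FFSS. Most of this was Cd14, while Ptprc, Adgre1, C1qb and Cd3e were below 0.1 FPKM in every library. The 2 tested, Cd14 and Cd68, were both called higher in FFSS than in P3 (11.4% of all genes). Cd68 rose from 0.683 ± 0.174 to 2.29 ± 0.269 FPKM (limma adjusted p = 0.00780). Csf1r reached 3.17 and Lyz2 5.36 FPKM in their highest FFSS libraries, but neither was tested. The glial markers summed to 15.5 to 29.0, 19.1 to 28.2 and 64.7 to 90.0 FPKM, mostly S100b. Sox10 and Erbb3 were below 0.1 FPKM in every library. Of the 2 tested, S100b was called higher in FFSS than in P3 (11.4% of all genes, limma adjusted p = 0.00338). Mbp was called higher in P9 than in P3 (5.39% of all genes), at 1.53 ± 0.470 against 0.213 ± 0.0773 FPKM (limma adjusted p = 0.0160). The cartilage markers summed to 957 to 1072 FPKM in P3, 786 to 816 in P9 libraries and 505 to 604 in FFSS, and the progenitor markers to 2351 to 2383, 2228 to 2528 and 2766 to 2884. Of the 9 progenitor markers tested, 1 was called lower in P9 than in P3 (Eng, limma adjusted p = 0.0149) and 0 higher. In FFSS, 3 were called higher than in P3 and 0 lower: Thy1 (limma adjusted p = 0.0253), Eng (0.0416) and Pdgfra (0.00647). The shares of all genes were 4.44% lower in P9 and 11.4% higher in FFSS. Within the cartilage list, members went opposite ways; the SOX genes are named here after their values were seen. In FFSS, 3 of the 7 tested were called higher than in P3 (Sox5, Sox6 and Sox9, which encode chondrogenic transcription factors) and 2 lower (Acan and Col11a1). Of all genes, 11.4% were called higher and 10.4% lower in that comparison. The P9 calls of this list were 1 higher and 2 lower, beside 5.39% and 4.44% of all genes. In P9, Acan rose from 128 ± 6.56 to 561 ± 56.4 FPKM (limma adjusted p = 0.000288), while Col11a1, a fibrillar collagen gene, fell from 857 ± 55.6 to 234 ± 63.7 FPKM (limma adjusted p = 0.000524) and Sox6 fell from 5.53 ± 0.538 to 1.28 ± 0.382 FPKM (limma adjusted p = 0.000731). The part of any of these markers in the differences of the members was not tested.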

How the data were processed

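The authors deposited FPKM values for 34267 genes in 9 libraries. Per the submitters' processing notes, HISAT2 2.0.5 and featureCounts 1.5.0-p3 were used with Rnor_6.0; their settings and the strandedness are not given in the sources used here, so reads from a gene and an antisense gene cannot be told apart. FPKM times gene length was a whole multiple of 1 step per library (100% of values, tolerance 0.01), which gave the fragments. Log2(FPKM + 1) was fitted with limma 3.58.1 (R 4.3.3), two-sided, with the 9 libraries in 1 model of 3 group means and a spread that follows the expression level. Tables and figures were made with Python 3.11.15, pandas 2.3.3, NumPy 2.4.6, SciPy 1.17.1 and matplotlib 3.10.9. The fit was tested on simulated data with the same spread in every library and changes in P9 only. That test can not speak for the spread between the FFSS libraries. Alternatives were another pseudocount, filter, scaling and model, the replicate block, and leaving out each library with the same genes tested. No libraries were duplicates.

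The members and lists were chosen with earlier results of these data known. Named were all 10 members, then Notch4, Dll4, Rbpj and Nrarp, up to 6 called pathway genes per comparison by smallest adjusted p, the 2 genes of most like pattern for each called member (those for Notch2 are not reported here), and of each marker list the highest genes and those near 0. Other markers were named after their values were seen. Promoter sequences came from RefSeq (GRCr8). Coordinates of genes are those of the deposited table.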

Additional observations from a re-analysis of the deposited data

How the results depend on the processing

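With 3 libraries a group, calls near the threshold were not stable. Of the log2 differences of the 6 members tested with the filter, under the alternatives run, 265 kept their direction and side of the threshold, 26 lost the call, 5 gained it and 1 changed sign: Jag1 in FFSS against P3, whose log2 difference of 0.12 ran from -0.21 (without FFSS replicate 2) to 0.55 (without FFSS replicate 1). For Dll1, Hey2 and Heyl, which are below the filter, all 9 log2 differences were larger in size under voom, with the same sign. The count of members called was 5 in P9 against P3, 2 in FFSS against P3 and 4 in P9 against FFSS. With a filter of 5 FPKM, which leaves only Notch2, Jag1 and Hes1 tested, it was 2, 1 and 1. In P9 against P3 it was 3 with a pseudocount of 0.1. In FFSS against P3 it was 1 without a filter and 0 with the 2 groups alone. Leaving out 1 library gave 2 to 6, 0 to 2 and 4 to 5. The other pathway genes called were 3, 14 and 18. In P9 against P3 they were 9 with the 2 groups alone and 5 with voom on genes with at least 10 fragments in 3 libraries, and in P9 against FFSS 10 with the 2 groups alone. Leaving out 1 library gave 0 to 9, 5 to 22 and 10 to 26. The counts with a library left out have no share of all genes beside them.

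The replicate numbers did not pair the libraries: deviations of same-numbered libraries from their group means correlated at -0.0408 to 0.0331 across genes. With the replicate block, 4, 1 and 4 members and 3, 12 and 16 other pathway genes were called in the 3 comparisons; Notch1 in P9 against P3 (limma adjusted p = 0.0690) and Hey1 in FFSS against P3 (0.0682) lost their calls. Depth limits Jag2, Dll1 and Dll4, for which few fragments were counted.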
